A study of Arabidopsis thaliana with 12 samples.

Results

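Pseudogene exons were examined as a class of RNA source in Arabidopsis seedlings. The members were all exon intervals that the deposited annotation lists under the gene biotype pseudogene, together with the fragments counted over them. They were 1274 of the 217183 exon intervals in the 9 biotypes of the count files, and they covered 879013 annotated bases. The set was defined by annotation alone and no count was used to choose it. The counts are given for each biotype as a whole, so that they do not show which pseudogenes the reads came from, and GPL could not be read in the samples to check their labels.

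The samples were wild type Col-0 seedlings (WT) and seedlings of gpl-1, each without abscisic acid (ABA) and after 2 h with ABA, with 3 libraries per group and 12 in all. The line gpl-1 carries a deletion made by CRISPR-Cas9 in GPL (AT3G47850), the plant relative of the animal corepressor subunit GPS2, and it represents a single allele. All seedlings were in the Col-0 background, were 2 weeks old and grew on MS medium with 1% sucrose at 23 °C under 16 h of light. The ABA concentration is not given in the sources used here, and the labels give 8 plants for a sample while the study's methods give a larger pool of whole seedlings. Polyadenylated RNA was read in pairs of 150 bp. The gpl-1 files head their count column with another name, which no source explains, and were assigned by their sample records.

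A pseudogene is a stretch of DNA that resembles a working gene but carries changes, such as stop codons, shifts of the reading frame or lost exons, that are taken to prevent it from coding for the full protein. Some arise when a gene is duplicated and a copy decays, others when a messenger RNA is copied back into the genome, and in plants also when organelle DNA moves into the nucleus. Some are still transcribed, and families that expand quickly, such as the F-box and small cysteine-rich protein families in Arabidopsis, leave many of them. Because a pseudogene resembles its parent, a short read can match both, so that the sequence of each interval bears on how its reads can be counted.

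The array of TT1-like pseudogenes on chromosome 1 is shown first because it holds the largest group of intervals with identical sequence. It comprised 8 loci, from AT1G34797 to AT1G34836, all on the plus strand between positions 12771928 and 12796115 (TAIR10), and each interval was 292 bases long. Each interval after the first began 3119 to 3124 bp after the end of the one before. The 8 intervals thus stood at an almost constant distance. They fell into 4 sequence variants. Variant 3 was shared by AT1G34808, AT1G34813 and AT1G34828, variant 1 by AT1G34797 and AT1G34818, variant 2 by AT1G34803 and AT1G34823, and variant 4 was found in AT1G34836. Capitals mark the bases that differ from variant 3. The sequences are from the RefSeq assembly TAIR10.1, whose nuclear coordinates match those of TAIR10, at chr1:12771928-12772219, chr1:12775342-12775633, chr1:12778756-12779047 and chr1:12795824-12796115.
TT1-like variant 1: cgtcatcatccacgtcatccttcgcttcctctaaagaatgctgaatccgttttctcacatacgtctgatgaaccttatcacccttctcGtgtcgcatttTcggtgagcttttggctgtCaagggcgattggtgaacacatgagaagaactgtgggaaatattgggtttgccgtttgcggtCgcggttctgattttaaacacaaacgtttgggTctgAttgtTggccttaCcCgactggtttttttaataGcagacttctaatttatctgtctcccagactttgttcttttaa
TT1-like variant 2: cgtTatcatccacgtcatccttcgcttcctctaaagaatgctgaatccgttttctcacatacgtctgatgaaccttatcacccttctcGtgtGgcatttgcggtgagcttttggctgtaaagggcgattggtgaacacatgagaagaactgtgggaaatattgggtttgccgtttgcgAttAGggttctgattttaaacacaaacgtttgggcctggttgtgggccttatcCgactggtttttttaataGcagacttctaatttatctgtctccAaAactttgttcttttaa
TT1-like variant 3: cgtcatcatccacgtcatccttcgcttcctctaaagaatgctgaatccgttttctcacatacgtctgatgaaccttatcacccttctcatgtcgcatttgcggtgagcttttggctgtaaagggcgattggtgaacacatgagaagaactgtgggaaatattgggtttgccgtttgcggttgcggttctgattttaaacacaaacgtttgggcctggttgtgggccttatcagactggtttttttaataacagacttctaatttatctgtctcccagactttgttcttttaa
TT1-like variant 4: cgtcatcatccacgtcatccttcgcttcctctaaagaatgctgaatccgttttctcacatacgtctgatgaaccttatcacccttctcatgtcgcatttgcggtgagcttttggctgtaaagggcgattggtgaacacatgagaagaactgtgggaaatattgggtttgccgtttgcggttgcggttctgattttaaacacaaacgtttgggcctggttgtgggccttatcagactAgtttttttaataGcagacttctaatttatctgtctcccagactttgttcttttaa

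Variants 1 and 2 each differed from variant 3 at 10 positions, and variant 4 differed at 2, G237A and A250G, counted from 1 at the 5′ end with the base of variant 3 first. The substitution A250G was common to variants 1, 2 and 4. The annotation names TT1 (AT1G34790) as their parent, the gene of a zinc finger protein needed for the pigment of the seed coat. It lies on the same strand at chr1:12763902-12765686, and the nearest of the 8 intervals begins 6.242 kb after its end. The 8 intervals matched TT1 over 239 bases with an identity of 77.0% to 77.8%, and the longest run of identical bases in a pair was 21 to 26. They were therefore much closer to each other than to the parent gene.

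The nuclear copy of mitochondrial nad1 is shown beside its counterpart as an example of the pseudogene exons that are almost identical to organelle genes. AT2G07786 lies at chr2:3399657-3399912 on the minus strand. Its 256 bases differed from the mitochondrial sequence at 1 position, G221A, counted from 1 at the 5′ end with the mitochondrial base first and marked in capitals. The counterpart lies at positions 233874 to 234129 of the mitochondrial sequence of TAIR10.1, which is not the mitochondrial sequence of TAIR10. The gene nad1 encodes a subunit of respiratory complex I.
nad1-like nuclear interval: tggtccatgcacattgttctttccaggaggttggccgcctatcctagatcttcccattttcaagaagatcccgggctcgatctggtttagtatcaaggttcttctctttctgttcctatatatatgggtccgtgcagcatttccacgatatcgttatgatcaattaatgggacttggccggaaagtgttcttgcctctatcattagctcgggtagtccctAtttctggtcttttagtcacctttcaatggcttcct
mitochondrial nad1 counterpart: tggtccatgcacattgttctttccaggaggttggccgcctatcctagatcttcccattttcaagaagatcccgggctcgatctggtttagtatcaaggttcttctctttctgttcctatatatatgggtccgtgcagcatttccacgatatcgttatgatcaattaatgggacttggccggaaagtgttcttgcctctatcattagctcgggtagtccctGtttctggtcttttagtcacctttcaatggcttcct

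The 3 shortest intervals of the class are shown because they are far shorter than a read. They are 4, 5 and 9 bases long and belong to AT4G09584 (chr4:6059809-6059812, plus strand, no named parent family), AT5G22792 (chr5:7607663-7607667, minus strand, noted as a relative of F-box genes) and AT3G19323 (chr3:6698514-6698522, plus strand, noted as a relative of a poly(A) binding protein gene). Each is printed in capitals with 20 bases on either side in lower case.
AT4G09584: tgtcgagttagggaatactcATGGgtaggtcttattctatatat
AT5G22792: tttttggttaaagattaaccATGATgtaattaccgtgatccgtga
AT3G19323: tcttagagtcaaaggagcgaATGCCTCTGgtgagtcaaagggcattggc

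All 3 begin with ATG and are followed by GT, the usual first bases of an intron. They have the form of first coding exons that hold little more than a start codon.

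Pseudogene exons were longer than protein_coding exons. The median length was 368.5 bases, with quartiles of 170 and 901, compared with medians of 147 bases for protein_coding and 625 bases for transposable_element intervals. Only 272 pseudogene intervals (21.4%) were under 150 bases, compared with 50.6% of protein_coding intervals. The 296 intervals of 1000 bases or more held 63.1% of all pseudogene exon bases. Most pseudogene bases thus lay in long intervals, and 682 of the 846 loci that could be named consisted of 1 interval. The GC content was 40.1%, against 42.3% for protein_coding and 41.9% for transposable_element intervals.

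The 5 longest intervals were of different kinds. The longest, 6985 bases, was AT2G24750 at chr2:10539001-10545985, of which 1105 bases were also annotated as ncRNA. The next, 6698 bases at chr3:12647725-12654422 on the minus strand, lay inside no named gene. AT3G25495 at chr3:9244325-9250768 had 6444 bases and is noted as derived from a leucine-rich repeat protein gene. The remaining 2, an unnamed interval of 6063 bases at chr2:3388454-3394516 and AT2G07717 with 5949 bases at chr2:3418229-3424177, lay in the mitochondrion-like stretch of chromosome 2 described below. The GC content of AT2G07717 was 47.3%, compared with 33.4%, 36.5% and 35.2% for the first 3.

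Of the 1271 distinct intervals (AT2G03972 has 3 that are entered 2 times each), 1171 lay inside a RefSeq gene on the same strand, and 935 (73.6%) were identical to a RefSeq exon, compared with 80.1% of 159403 protein_coding intervals. The named intervals belonged to 846 loci. RefSeq classes 844 of them as transcribed pseudogenes, 1 (AT3G04450) as protein coding and 1 as a pseudogene without transcript. RefSeq lists 4843 nuclear genes under a pseudogene biotype of any kind, of which 926 are transcribed. The counted class thus holds mainly pseudogenes for which a transcript has been annotated. What the RefSeq entries outside it are, and whether other biotypes here count them, was not examined. Of the 100 intervals not inside a RefSeq gene on the same strand, 85 still overlapped a RefSeq pseudogene. The most divided locus, AT1G29715 at chr1:10389294-10392668 on the minus strand, had 12 intervals of 21 to 483 bases.

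The notes of the annotation describe 430 of the loci, and the notes of 146 held a keyword of 1 of 14 gene families. A locus whose note does not use the keyword is not counted, so each count is a yield of the search. The largest group was of F-box genes, which encode the substrate-binding subunits of ubiquitin ligases, with 35 loci and 29081 exon bases. Small secreted cysteine-rich proteins followed, with 29 defensin-like loci (6621 bases) and 20 loci of the ECA1 gametogenesis related family (6929 bases). The notes of 11 loci (10275 bases) named cytochrome P450, a family of oxidizing enzymes, and AT2G17330 (CYP51G2), whose note names only a demethylase, was not among them. There were 8 loci each of TT1, of the methyl-CpG-binding domain genes, whose proteins bind methylated DNA, and of self-incompatibility related genes. Pentatricopeptide repeat proteins, which bind organelle RNA, had 7 loci, and thionins, which are antimicrobial peptides, had 5.

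Families differed in how their loci were spread. The 35 F-box loci occurred on all 5 chromosomes, with 14 on chromosome 1, and the 29 defensin-like loci likewise, with 9 on chromosome 2. By contrast, all 8 methyl-CpG-binding loci were on chromosome 2, 6 of them from AT2G15012 to AT2G15017, and all 8 TT1-like loci were on chromosome 1. The 4 loci noted as UDP-3-O-acyl N-acetylglucosamine deacetylase and F-box related, AT1G24792, AT1G24879, AT1G25053 and AT1G25209, were on chromosome 1 as well. The median interval was 173 bases in the defensin-like group and 629 bases in the cytochrome P450 group. These are counts of loci, and no read count is available for a family.

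Open reading frames were less common in pseudogene than in protein_coding exons of like length. Stop codons are among the changes that define a pseudogene, so this describes the class and is not an independent result. An open sense frame, that is, at least 1 of the 3 forward reading frames without a stop codon over the whole interval, was present in 80 of 255 pseudogene intervals of 151 to 300 bases (31.4%). The share was 69.5% for protein_coding intervals of that length, 72.1% for transposable_element and 16.5% for ncRNA intervals. Among intervals of 301 to 600 bases it was 8.87% for pseudogene, 33.2% for protein_coding and 39.3% for transposable_element intervals. At 601 to 1000 bases, 3 of 154 pseudogene intervals had an open frame (1.95%), compared with 27.0% and 20.1%. In every length class shown the pseudogene share lay between those of ncRNA and of protein_coding intervals. Intervals of protein_coding genes include untranslated parts of exons.

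**Figure D1:**
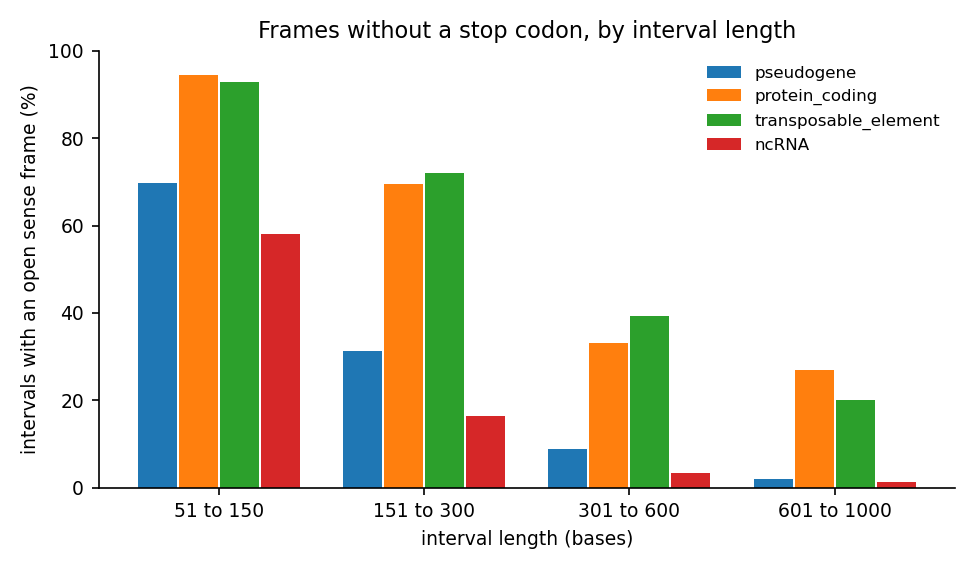
Share of exon intervals (percent, y axis) with at least 1 forward reading frame free of stop codons, by interval length in bases (x axis) and biotype (bar colours). Pseudogene bars, from 69.6% at 51 to 150 bases down to 1.95% at 601 to 1000 bases, lie below the protein_coding bars in all 4 length classes.

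The gaps between consecutive intervals of a pseudogene locus were set beside those of protein_coding intervals. Of 318 pseudogene gaps of 20 to 5000 bases, 72.0% began with GT and ended with AG, the ends of most spliced introns. Among 134912 protein_coding gaps in the same length range the share was 85.6%. The protein_coding gaps lay between consecutive intervals on the same strand without regard to the gene. They can therefore include gaps between neighbouring genes or transcripts, and the shares are not like for like. The median gap was 97.0 bases for pseudogene and 107 bases for protein_coding intervals, with the same limit. A further 4 pseudogene gaps were longer than 5000 bases.

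For 152 loci the note names another gene as the parent, and 146 of these pairs could be aligned. Identity was taken over the best-scoring aligned segment of each pair, which may cover only part of the exons. Its median was 81.9% (quartiles 75.7% and 89.0%, range 64.3% to 100%). Over all segments of a pair, a median of 97.4% of the exon bases entered an alignment. The lowest identity, 64.3%, was between AT3G42466 and AT2G26730. The beta-galactosidase relative AT1G30784 on chromosome 1 was 99.1% identical to AT5G01080 on chromosome 5, with 5 differences over 555 bases. In 122 pairs the longest run of identical bases was under 50, and in 6 pairs it was 150 or more, the length of a read. The parent was on the same chromosome in 71 pairs, 33 of them within 10 kb, and on another in 75. Median identity was 81.9% with a parent within 10 kb and 81.7% with one elsewhere.

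The intervals were unevenly placed. Chromosome 2 carried 14.4 pseudogene intervals per Mb and 11.4 kb of pseudogene exons per Mb, and chromosome 5 carried 7.75 intervals and 5.00 kb per Mb, the lowest of the 5 on both measures. Chromosomes 1, 3 and 4 had 11.1, 11.3 and 9.52 intervals per Mb. No interval was on the plastid or mitochondrial chromosome. Joined within 5 kb, the intervals formed 792 clusters, of which 543 were single intervals and 102 held 3 or more.

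Part of the unevenness followed the transposable elements. In the 42 windows of 500 kb in which transposable_element exons covered more bases than protein_coding exons, 17.6% of the genome, there were 16.5 pseudogene intervals per Mb, compared with 9.45 per Mb elsewhere. These windows held 347 pseudogene intervals (27.2%), 71.2% of transposable_element intervals, 3.96% of protein_coding intervals and 8.74% of ncRNA intervals. The high transposable_element share and the low protein_coding share follow from the rule that chose the windows and are not results. The pseudogene share was above the 17.6% of the genome that these windows make up, and the ncRNA share was below it. Most pseudogene intervals still lay outside. The median distance to the nearest protein_coding exon was 884.5 bp, and 53.9% of pseudogene intervals were within 1 kb of one, compared with 12.5% of transposable_element, 74.5% of ncRNA and 77.2% of tRNA intervals.

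**Figure D2:**
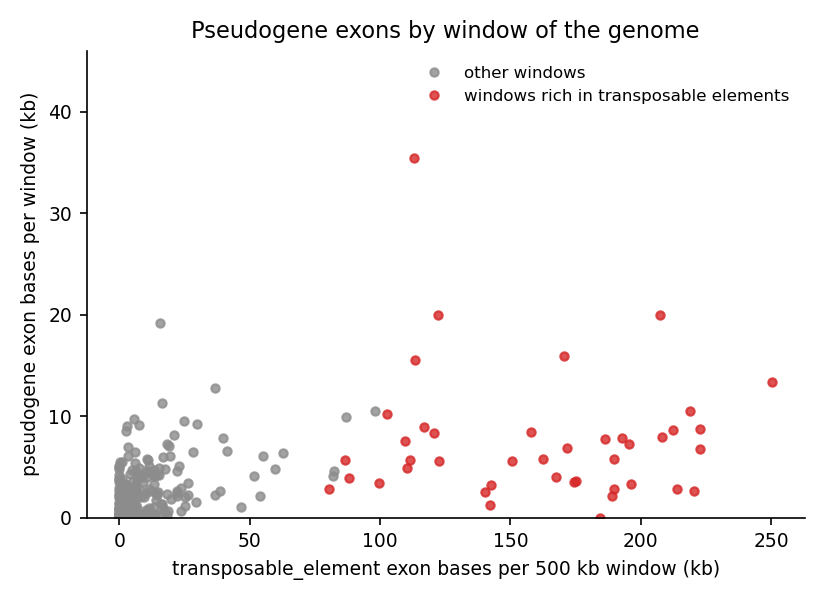
Pseudogene exon bases (kb, y axis) against transposable_element exon bases (kb, x axis) in 240 windows of 500 kb, 1 point per window, with the 42 windows in which transposable_element exons exceed protein_coding exons in red. One red window, on chromosome 2, reaches 35390 pseudogene bases, while the median window holds 2609.

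The window with the most pseudogene bases, chr2:3000001-3500000, held 26 intervals and 35390 bases, compared with medians of 4 intervals and 2609 bases. Nearly all of them lay in a stretch of nuclear DNA that resembles the mitochondrial genome. In chr2:3239166-3509765, 270.6 kb, 88.8% of all windows of 150 bases also occurred in the mitochondrial genome. The stretch held 27 pseudogene intervals with 34549 bases, which is 2.12% of all pseudogene intervals and 3.93% of their bases, together with 157 protein_coding and 16 transposable_element intervals. No pseudogene interval outside it shared a window of 150 bases with the mitochondrial genome.

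These 27 intervals were almost unchanged copies. Their best match in the mitochondrial genome had a median identity of 99.9% and a lowest identity of 99.0%, and 11 were identical over their whole length. Of the 27, 13 overlapped a named mitochondrial gene, each in the sense direction. They included parts of the respiratory complex I genes nad1, nad2, nad4, nad5, nad6 and nad7, the ATP synthase genes atp6 and atp9, the cytochrome c maturation genes ccmFN1 and ccmFC, the maturase gene matR and the protein transport gene mttB. For example, AT2G07711 (2277 bases, nad5) had 2 differences, AT2G07699 (1158 bases, atp6) had 2, and AT2G07716 (884 bases, mttB) had none.

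Over the whole class, 93.8% of pseudogene exon bases started a window of 150 bases that occurs once in the genome. The share was 99.0% for protein_coding, 98.7% for ncRNA, 91.6% for transposable_element and 87.2% for tRNA intervals. All windows of 1155 distinct intervals (90.9%) occurred once, and 28 intervals (2.20%) had none that did. The share was 88.9% in windows rich in transposable elements and 96.6% elsewhere. Most windows that start in the class thus had no second exact copy. A window could run past the end of its interval, so that flanking bases could make it unique. In intervals under 150 bases, among them all nuclear tRNA intervals (at most 87 bases), every window ran past the end. For AT2G07812, 46.9% of windows occurred once, although all its 318 bases matched the mitochondrial genome exactly. Copies that differ at a few bases, to which an aligner may also assign a read, were not searched for. The search used the mitochondrial sequence of TAIR10.1, which is not that of TAIR10.

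Other biotypes overlapped few pseudogene exons. On either strand 19255 bases (2.19%) in 57 intervals were shared, and 10 intervals were covered entirely. On the same strand the share was 0.382% in 14 intervals. Protein_coding exons overlapped 49 intervals, 36 of them on the opposite strand, and ncRNA exons overlapped 5, all on the opposite strand. The intervals with the most shared bases were an unnamed one at chr5:7826028-7828724 (2297 of 2697 bases, protein_coding), DRP4D (AT1G60510, 2296 of 2418 bases, ncRNA) and DRP4B (AT1G60540, 1589 of 1595 bases, ncRNA). The latter pair belong to the dynamin-related genes, whose intact members encode GTPases that remodel membranes. The counting did not use strand and did not allow a fragment to count for several biotypes, so a fragment that overlapped exons of 2 biotypes was left out.

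Pseudogene exons took between 0.0967% and 0.167% of the fragments. The count was between 30066 and 54431 per library, of totals between 24735276 and 34329165, and 454748 over the 12 libraries. As counts per 1000000 of the library total (CPM), the level was between 967 and 1666, a 1.72-fold range. At these counts sampling error is small, and the 95% Wilson interval of the lowest library was 956 to 978 CPM, which covers counting error only. The pseudogene reads may come from many or few of the loci described above. In bulk seedlings, fewer cells of a type and less RNA per cell cannot be told apart.

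Per kb of annotated length the pseudogene level was between 1.10 and 1.90 CPM. Protein_coding exons were 12.7 to 21.9 times higher in the same library, and ncRNA exons 1.68 to 3.86 times higher. The level of pseudogene exons was in turn 5.89 to 11.4 times that of transposable_element exons. Pseudogene exons lay below all biotypes except transposable_element and snRNA in all 12 libraries. The annotated lengths are not all transcribed in seedlings, so these ratios compare whole annotated classes. Reads were aligned with Bowtie2, and any loss of reads that cross exon junctions was not measured. Such a loss could differ between biotypes, since the median interval was 147 bases for protein_coding and 368.5 bases for pseudogene. The protein_coding to pseudogene ratio was also taken with lengths cut to nuclear bases that no other biotype covers and counts unchanged. Its median was 17.3 in place of 17.4. The ratio of ncRNA to pseudogene was not recalculated in this way. Of the ncRNA bases, 49.7% were shared with another biotype, and fragments over exons of several biotypes were left out. The ncRNA level per kb may therefore be understated.

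**Figure D3:**
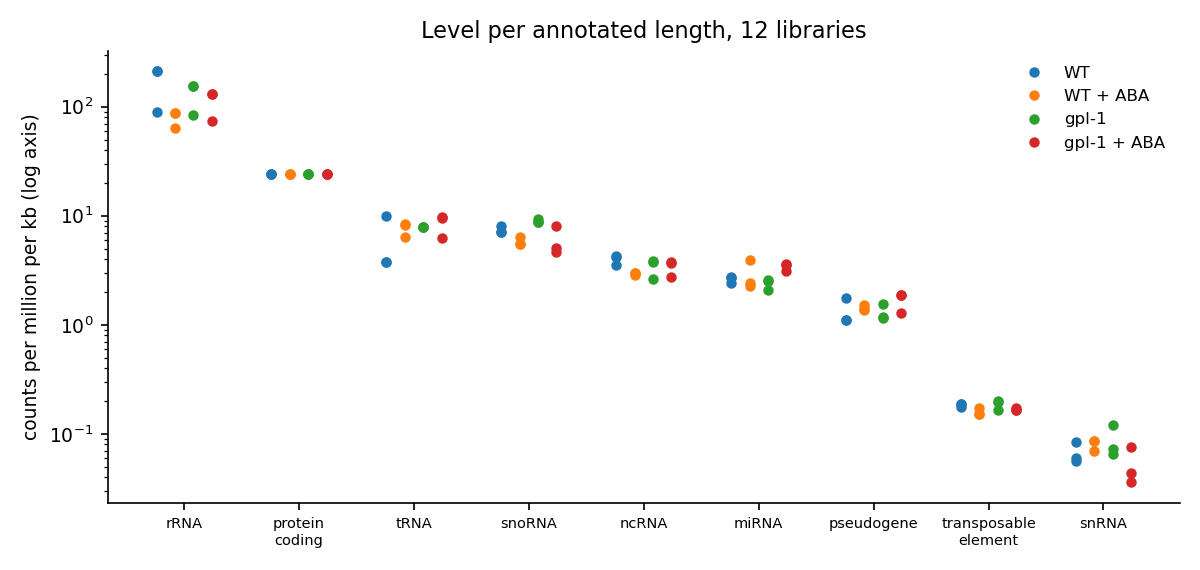
CPM per kb of annotated exon length (log axis) for the 9 biotypes in the 12 libraries, 1 point per library, coloured by group. Pseudogene points, between 1.10 and 1.90, lie below those of protein_coding, ncRNA and miRNA and above those of transposable_element in every library.

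Before the groups were compared, the libraries of each group were compared with each other. Replicates 1 and 2 differed by at most 1.57% in the pseudogene level in every group, while replicate 3 differed from them by 8.54% to 60.5%. Compared over all biotypes by chi-square, the ratio to the degrees of freedom was 0.815 to 2.31 between replicates 1 and 2 and 384 to 3968 against replicate 3. Between replicates 1 and 2 the ratio was 0.908 (chi-square p = 0.508) in WT, 0.815 (p = 0.589) in WT with ABA, 1.55 (p = 0.135) in gpl-1 and 2.31 (p = 0.0177) in gpl-1 with ABA. For the pseudogene count alone p was lowest in gpl-1, at 0.0385. A difference beyond sampling noise was thus found over all biotypes in gpl-1 with ABA and for the pseudogene count in gpl-1, but both were far smaller than those from replicate 3. Each such pair was summed and treated as 1 sample, which gives n = 2 per group. Replicate 3 was also the shallower library, with totals of 24735276 to 26660322 fragments against 31092645 to 34329165, and the part of depth in what follows was not tested. No source says that the replicates came from separate cultures, and the p-values measure the spread between these samples, which may be technical.

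In WT without ABA, the pseudogene level was 967, 971 and 1552 CPM in replicates 1, 2 and 3. In WT with ABA it was 1222, 1214 and 1326 CPM. In gpl-1 it was 1025, 1041 and 1360 CPM without ABA. Replicate 3 was the highest in these 3 groups. In gpl-1 with ABA the order was turned, with 1662, 1666 and 1130 CPM. The highest and the lowest replicate 3 libraries were therefore WT without ABA and gpl-1 with ABA, while for replicates 1 and 2 the same 2 groups were the lowest and the highest. Without ABA, the mean was 1260 ± 412 CPM for WT and 1197 ± 231 CPM for gpl-1 (SD, n = 2). Under ABA it was 1272 ± 76.5 CPM for WT and 1397 ± 378 CPM for gpl-1 (SD, n = 2). The ranges of all 4 groups overlapped.

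**Figure D4:**
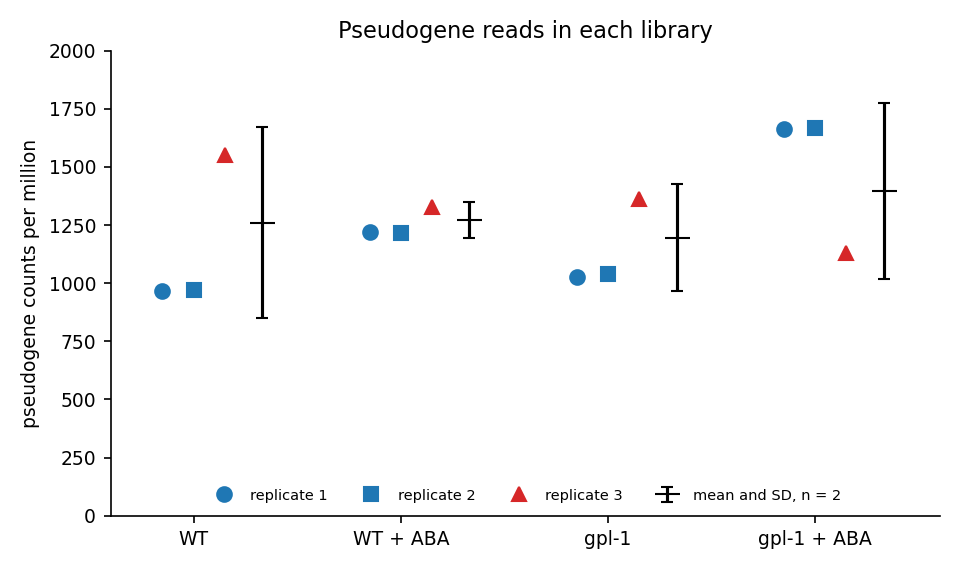
Pseudogene level in CPM (y axis) in the 4 groups, with replicates 1 and 2 in blue and replicate 3 as red triangles, and the mean and SD of the 2 samples of each group (replicates 1 and 2 summed, and replicate 3) in black. Replicate 3 lies above replicates 1 and 2 in 3 groups and below them in gpl-1 with ABA.

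No comparison between groups passed the test. In edgeR's quasi-likelihood fit over the 9 biotypes with Benjamini-Hochberg adjustment, the number of biotypes called was 0 of 9 (0%) in each of the 5 contrasts, pseudogene included, and 0 also at an unadjusted p under 0.05. DESeq2 called 0 of 9 in each contrast as well. The first question was whether ABA changed the pseudogene level in either genotype. For ABA in WT, the log2 fold change was 0.01 with a standard error of 0.32 (95% interval -0.83 to 0.86, adjusted p = 0.968, edgeR). For ABA in gpl-1 it was 0.22 with a standard error of 0.32 (-0.62 to 1.07, adjusted p = 0.936, edgeR). Both intervals included 0 with wide margins on either side.

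The second question was whether loss of GPL changed the level. For gpl-1 against WT without ABA, the log2 fold change was -0.08 with a standard error of 0.32 (95% interval -0.92 to 0.77, adjusted p = 0.970, edgeR). With ABA it was 0.13 with a standard error of 0.32 (-0.71 to 0.98, adjusted p = 0.929, edgeR). The interaction of genotype and ABA was 0.21 with a standard error of 0.45 (-0.99 to 1.41, adjusted p = 0.926, edgeR). The intervals were wider than each of these differences, so that neither a change nor its absence was shown.

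Tests over both strata made no call either. ABA over both genotypes changed log2 CPM by 0.13 (two-sided exact permutation test within genotypes, p = 0.556), and the mutant differed from WT over both treatments by 0.03 (p = 0.944, exact permutation within treatments). The smallest p these exact tests allow is 0.0556. In single contrasts the exact permutation p for ABA was 1 in WT and 0.667 in the mutant, and it was 1 for each of the 2 genotype contrasts, where the smallest possible p is 0.333.

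The direction depended on the replicate set. Within replicates 1 and 2 the log2 ratio of the pseudogene level under ABA was 0.33 in WT and 0.69 in the mutant. Within replicate 3 the same ratios were -0.23 and -0.27. Both sets thus gave opposite directions for ABA. For gpl-1 against WT the ratio was 0.09 without ABA and 0.45 with ABA in replicates 1 and 2. In replicate 3 it was -0.19 and -0.23. In the 4 contrasts, which share groups and are not independent, replicates 1 and 2 were positive and replicate 3 negative. Without replicate 3, edgeR's adjusted p was between 3.9e-08 and 0.0005 for the 5 contrasts. However, the spread in that fit is only that between replicates 1 and 2, which were nearly equal.

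Of the 9 biotypes, only pseudogene and tRNA had opposite signs in both sets in all 4 contrasts. The tRNA ratios for ABA were 1.14 and -0.65 in WT and 0.29 and -0.31 in the mutant, replicates 1 and 2 first. Between the genotypes they were 1.07 and -0.34 without ABA and 0.21 and -0.01 under ABA. For transposable_element, the ABA ratios in WT were -0.30 and -0.04, with the same sign in both sets. This is a description of these libraries, and no test of the likeness was made.

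**Figure D5:**
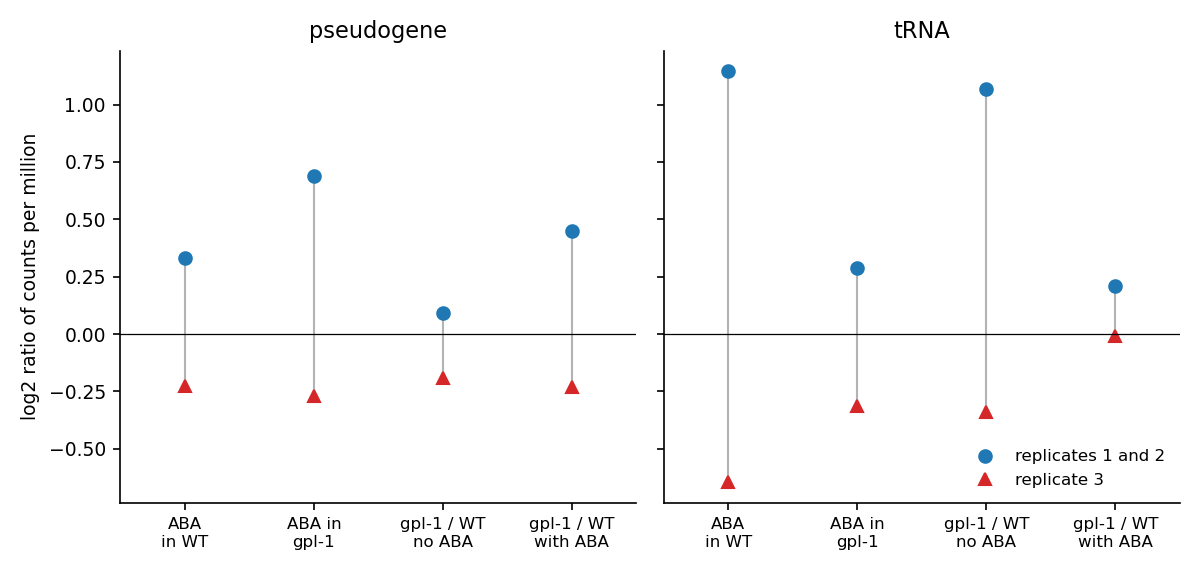
Log2 ratio of CPM (y axis) in 4 contrasts (x axis) for pseudogene (left) and tRNA (right), within replicates 1 and 2 summed (blue circles) and within replicate 3 (red triangles), joined by a grey line. Each pseudogene pair lies on opposite sides of 0, from 0.69 and -0.27 for ABA in gpl-1 to 0.09 and -0.19 for gpl-1 against WT.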

How the data were processed

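Polyadenylated RNA was measured in 12 libraries of 4 groups. The authors aligned paired-end reads to TAIR10 with Bowtie2 after Trim Galore and FastQC, and used featureCounts 2.0.1 to make the deposited raw counts. Per the file headers, fragments were counted over exons, grouped by gene biotype and without strand, with both mates mapped and chimeric pairs left out, although the labels name a directional library kit. The deposited counts and the authors' length column (another kind of value, in bases) were used as they stand. The deposited annotation columns are identical in all files.

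Counts were divided by the total over the 9 biotypes. Counts of replicates 1 and 2 were summed. The main test was edgeR 4.0.16 (R 4.3.3) with no further scaling, all groups in 1 fit, no filter and a threshold of 0.05, tested on simulated data. Alternatives were DESeq2 1.42.0 (its own size factors), TMM, other library sizes, a minimum of 50 counts, 3 libraries, replicate number as a block, permutation and left-out libraries. Levels are given with SD over samples and Wilson intervals at 95%.

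Interval sequences and names were read from RefSeq TAIR10.1, on which every nuclear interval fits within its chromosome. Windows of 150 bases were searched on both strands, parents and mitochondrial matches with blastn 2.17.0, and families by keyword in the notes. Scripts ran in Python 3.11.15 (numpy 2.4.6, scipy 1.17.1, matplotlib 3.10.9). The intervals named are the 5 longest, the 3 shortest, the 3 with the most shared bases, the largest cluster, the window with the most bases and the largest identical group. The other loci named were chosen after their values were seen. The members and lists were chosen with earlier results of these data known.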

Additional observations from a re-analysis of the deposited data

How the results depend on the processing

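The levels rest on 2 samples per group. Without replicate 3, the genotype difference without ABA reversed, and each other contrast changed its value by over 1.5 times. The log2 fold change was then 0.33 for ABA in WT and 0.69 in the mutant, 0.09 (reversed) between the genotypes without ABA, 0.45 between them under ABA and 0.36 for the interaction, with edgeR adjusted p-values from 3.9e-08 to 0.0005. Over all fits that leave out replicates or single libraries, the ABA effect ranged from -0.049 to 0.39 in WT and from 0.22 to 0.69 in the mutant, the genotype difference from -0.29 to 0.30 without ABA and from 0.13 to 0.45 under ABA, and the interaction from -0.17 to 0.46. The single libraries that reversed a value were replicate 3 of WT with ABA for the ABA effect in WT (-0.049), and replicate 3 of WT for the genotype difference without ABA (0.30) and for the interaction (-0.17). Leaving out a single library gave no pseudogene call. With DESeq2 the genotype difference under ABA was -0.042, reversed, and the cause was not tested. TMM scaling moved the ABA effect from 0.01 to 0.13 in WT and from 0.22 to 0.31 in the mutant. Over both strata, leaving out replicates gave 0.13 to 0.51 for ABA and 0.03 to 0.27 for the genotype.

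The group mean without one of the replicates ranged from 969 to 1261 CPM in WT, 1218 to 1274 in WT with ABA, 1033 to 1201 in gpl-1 and 1396 to 1664 in gpl-1 with ABA.

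The sources do not say what the shared replicate numbers mark, and they were not taken to pair the samples, because 14 and not all of the 18 correlations of deviations between same-numbered libraries were over 0.1 (range -0.09 to 0.72). As a hint from the data, not the design, 8 of 12 libraries correlated best with their own number, and 12 of 12 did with numbers 1 and 2 counted as one. Neither these libraries nor the 18 correlations are independent. Deviations were taken from the mean of each group, in which replicates 1 and 2 were nearly equal. For WT with gpl-1, for example, the correlations were 0.72, 0.71 and 0.71 for replicates 1, 2 and 3. With the replicate block the log2 fold change for ABA was 0.13 in WT and 0.41 in the mutant, the genotype difference was -0.02 without ABA and 0.26 under it, and the interaction was 0.28, with no pseudogene call. The block called 2 of 9 biotypes for ABA in each genotype and 2 for the interaction, where the fit without it called 0. The block fit took all 12 libraries separately. Replicates 1 and 2, which were summed in the main fit, thus counted as independent samples, so its calls may overstate the evidence.

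With the same strand only, 0.382% of bases were shared with other biotypes in place of 2.19%. With a rule that sets transposable_element bases against only 10% of protein_coding bases, 50.4% of pseudogene intervals lay in rich windows in place of 27.2%, because the rule takes in more windows. Of the windows of 75 and 50 bases that start in the class, 91.7% and 89.2% occurred once, in place of 93.8%. Shorter windows recur more often. The other 148 values kept direction and side of the threshold or lay within the spread.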
